A study of Homo sapiens with 6 samples.

Results

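GATA2 and TFAP2B are transcription factors of the sympathetic lineage that neuroblastoma cells retain. They were taken by name from a table of gene expression in SH-SY5Y cells, and both are present, as 2 of its 4101 genes. SH-SY5Y is an established human neuroblastoma cell line, labelled wild type, so that all values come from a single line. The METH-treatment group was 3 samples of cells given 2 mM methamphetamine (METH), a psychostimulant, for 24 h, and the PBS-treatment group was 3 samples given the same volume of phosphate-buffered saline. The 24 h comes from the treatment protocol, while the time tag of the samples is day 0. The libraries are called PBS 10, PBS 11, PBS 12, METH 1, METH 2 and METH 3 after the columns of the table. Nothing in the labels tells separate cultures from repeat libraries, so p-values measure the spread between these libraries. Values are read counts scaled to 1000000 reads of the library (CPM), and 85.67 to 110.8 M reads lay behind a library. Every gene of the table is marked by the authors as differing between the groups, so that a call within it is a weaker statement than a call among all genes. By limma, 35.8% of the 4101 genes were lower with METH and 33.3% were higher at an adjusted p-value under 0.1, the threshold used throughout. All METH libraries were below all PBS libraries in 33.0% of the genes and above them in 31.0%.

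In sympathetic neurons and chromaffin cells, a set of transcription factors switch each other on and hold the noradrenergic state, in which cells make, store and take up noradrenaline. GATA2 is a zinc finger protein that binds GATA motifs, and in this lineage it acts beside HAND2 and GATA3. TFAP2B encodes AP-2 beta, which binds GC-rich palindromes as a dimer and is needed for noradrenergic differentiation. In neuroblastoma such factors keep cells in the adrenergic state, as opposed to the mesenchymal state. In these cells the transporter of noradrenaline (SLC6A2, 94.2 CPM with PBS) and chromogranin B (CHGB, 243 CPM) were present. The vesicular monoamine transporter SLC18A2 was at only 0.417 CPM with PBS. The enzymes TH and DBH, and CHGA and SLC18A1, have no row in the table and could not be analysed here. The label noradrenergic was therefore checked on only part of its markers.

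GATA2 (ENSG00000179348) lies on the minus strand of chromosome 3, from 128479427 to 128493185, in the annotation of GENCODE release 29 (GRCh38). TFAP2B (ENSG00000008196) is a plus-strand gene of chromosome 6, between 50818723 and 50847613. GATA2-AS1, an antisense RNA on the plus strand, overlaps GATA2 by 3974 bp. GATA2-AS1 has no row of its own in the table. Whether the reads were counted by strand is not given in the sources used here, so reads of GATA2-AS1 cannot be told apart from those of GATA2. No annotated gene overlaps TFAP2B, and its nearest protein-coding neighbour is the family member TFAP2D, 45735 bp away. The genome build the authors used is not given in the sources used here.

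The sequences before the start sites are shown because both genes encode factors that bind DNA, and the letters each one prefers can be looked for at the other. They are from RefSeq (GRCh38.p14), and the capitals mark the AP-2 palindrome GCCNNNGGC in GATA2 and the GATA core, on either strand, in TFAP2B. RefSeq has 2 starts of GATA2. The first run is the 250 bases before the outer start (chr3:128493202-128493451, minus strand), within the span of GATA2-AS1 but in no annotated exon. The second is the 250 bases before the inner start (chr3:128488531-128488780, minus strand), in an intron of GATA2. Of the 250 bases before the start of TFAP2B, 148 are exonic in GENCODE, so only the 30 bases around each match are shown (chr6:50818760-50818789 and chr6:50818801-50818830, plus strand).
GATA2 outer start: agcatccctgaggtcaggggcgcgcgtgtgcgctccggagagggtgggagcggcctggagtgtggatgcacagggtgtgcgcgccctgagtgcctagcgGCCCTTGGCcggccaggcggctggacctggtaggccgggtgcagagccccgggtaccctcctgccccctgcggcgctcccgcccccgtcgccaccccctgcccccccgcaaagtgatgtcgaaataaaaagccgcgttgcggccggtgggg
GATA2 inner start: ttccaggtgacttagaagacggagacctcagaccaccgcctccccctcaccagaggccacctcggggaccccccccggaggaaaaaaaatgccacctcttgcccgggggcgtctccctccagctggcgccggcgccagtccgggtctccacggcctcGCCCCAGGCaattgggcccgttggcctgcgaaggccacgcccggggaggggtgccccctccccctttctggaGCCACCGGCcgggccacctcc
TFAP2B first match: gtttgagacaacaGATAtaagttgcgatgg
TFAP2B second match: cggatttggtgtgTATCccccatttccaat

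The outer start of GATA2 had 1 AP-2 palindrome, beginning 151 bases before the start, and the inner start had 2, beginning 93 and 21 bases before it. The start of TFAP2B had none in its 250 bases. That palindrome is in 19.8% of the 35116 RefSeq windows of the same length, and in 45.8% of the 7287 windows with at least 70% G and C. The GATA2 windows had 72.8% and 71.2% G and C, against a median of 58.0% over all windows and 40.8% in TFAP2B. The GATA core was found 2 times before the RefSeq start of TFAP2B, beginning 98 and 57 bases before it, and not before either GATA2 start. Both matches lie within the exonic bases, past the start that GENCODE gives for TFAP2B (50818723). It is in 45.6% of all windows. The longer form WGATAR (W is A or T, R is A or G), which contains the core, was searched on both strands and found in none of the 3 windows, against 22.3% of all windows. These matches are letters in a sequence, and binding was not measured.

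GATA2 was at 401, 415 and 507 CPM in PBS 10, PBS 11 and PBS 12, and at 264, 279.8 and 267 CPM in METH 1, METH 2 and METH 3. The METH libraries lay close together and well below the PBS libraries, with a gap of 122 CPM between the groups, and PBS 12 was the highest. From 22633 to 47178 reads per library lay behind these values, so counting error is small beside the spread between the PBS libraries. Its mean was 441 ± 57.1 CPM (SD, n = 3) in the PBS group, and in the METH group it was 270 ± 8.38 CPM (SD, n = 3). On the log2(CPM + 0.1) scale the change was -0.70 (standard error 0.215, 95% interval -1.18 to -0.22, limma adjusted p = 0.0371), a level 38.4% lower with METH. In bulk RNA, less GATA2 RNA per cell and fewer cells that express it cannot be told apart.

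TFAP2B was at 62.6, 53.4 and 60.0 CPM in PBS 10, PBS 11 and PBS 12, and at 33.9, 40.0 and 52.6 CPM in METH 1, METH 2 and METH 3. The groups did not overlap, but METH 3 lay only 0.768 CPM below PBS 11, while METH 1 and METH 2 lay farther down. Its mean was 58.7 ± 4.78 CPM (SD, n = 3) in the PBS group, and in the METH group it was 42.2 ± 9.52 CPM (SD, n = 3). The log2 change was -0.50 (standard error 0.217, 95% interval -0.98 to -0.01, limma adjusted p = 0.0811), a level 29.1% lower with METH. Reads per library numbered from 2907 to 6939.

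**Figure D1:**
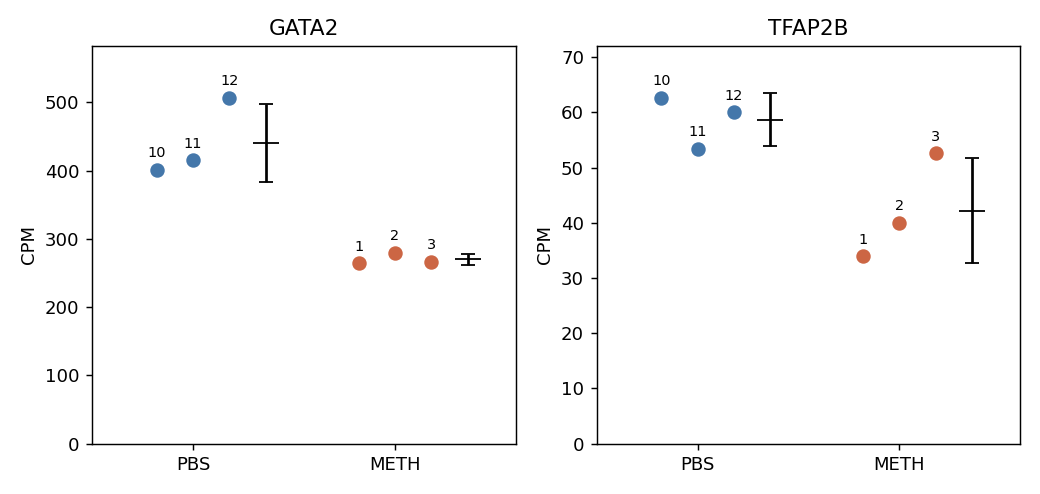
CPM (vertical axes, from 0) of GATA2 (left) and TFAP2B (right) in the 3 PBS and 3 METH libraries, each point labelled with its library number; the black bars are the mean and SD of a group. GATA2 with METH sits between 264 and 280 CPM, below all PBS libraries, while TFAP2B in METH 3 (52.6 CPM) comes close to PBS 11 (53.4 CPM).

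Both of the 2 genes were lower with METH, where 35.8% of the table was. The exact permutation test, 2-sided, gave p = 0.1 for each gene, the smallest that 3 libraries against 3 allow. Neither decrease was past the threshold when the p-values were adjusted over an assumed 20000 genes (adjusted p = 0.181 for GATA2 and 0.396 for TFAP2B), where 4.66% of the table was lower. GATA2 was not past it without METH 1 (log2 change -0.68, adjusted p = 0.119) or without METH 2 (-0.72, adjusted p = 0.122). TFAP2B missed the threshold when PBS 10 was left out (-0.45, adjusted p = 0.131), PBS 12 (-0.48, adjusted p = 0.155), METH 1 (-0.35, adjusted p = 0.258) or METH 2 (-0.47, adjusted p = 0.206).

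The decreases of both genes were compared by the ratio of GATA2 to TFAP2B within a library. In CPM the ratio was 6.41, 7.78 and 8.44 in the PBS libraries and 7.79, 6.99 and 5.07 in the METH libraries, and the groups overlapped. The log2 ratio was 2.90 ± 0.204 (SD, n = 3) with PBS and 2.70 ± 0.322 (SD, n = 3) with METH, a difference of -0.20 (exact permutation test, 2-sided, p = 0.6). A difference between the decreases of GATA2 and TFAP2B was not detected with 3 libraries a group. Without METH 3 the difference was -0.02. It was also smaller in size without PBS 11 or PBS 12, and larger in size without PBS 10, METH 1 or METH 2.

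**Figure D2:**
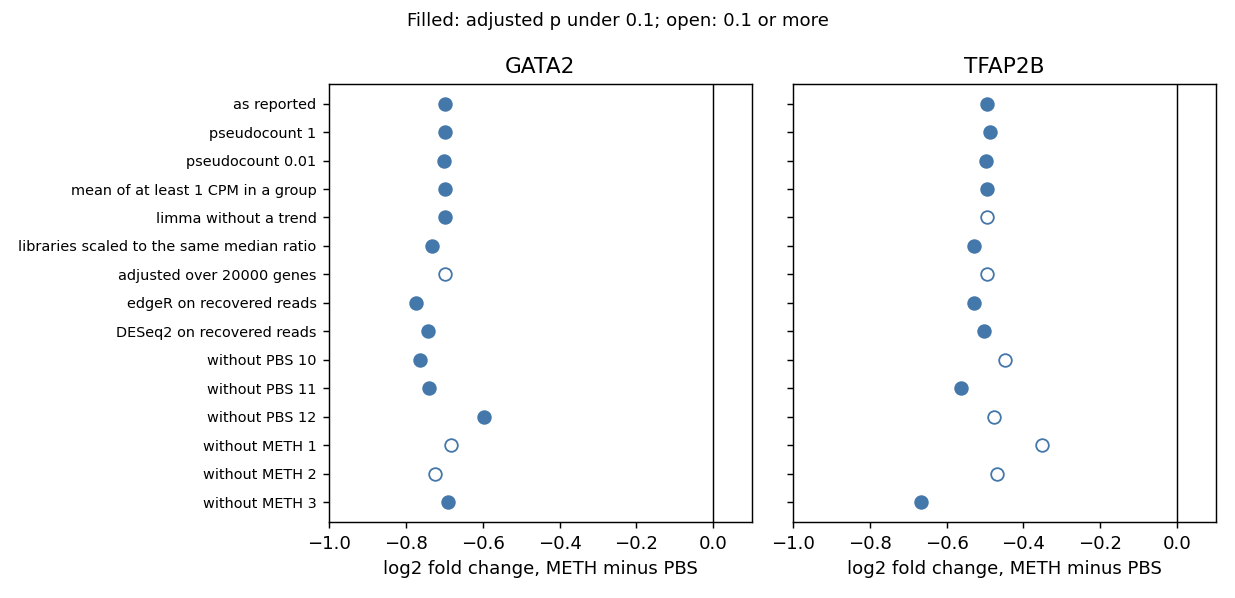
Log2 fold change of METH against PBS (horizontal axes) for GATA2 (left) and TFAP2B (right) as reported and under each alternative processing or left-out library (rows); filled points have an adjusted p-value under 0.1 and open points 0.1 or more. All values are negative, from -0.77 to -0.60 for GATA2 and from -0.67 to -0.35 for TFAP2B.

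Levels of different genes were compared per kb of exon, counting all annotated exons. With PBS, GATA2 was at 98.9 CPM per kb and ranked first of the 9 factors of the table listed as identity factors or as members of the GATA and AP-2 families, above all libraries of the next, TLX2 (46.6 CPM per kb). The rank holds only among these 9, and other factors of the lists, such as HAND2 and GATA3, were not ranked. TFAP2B had rank 6 at 9.54 CPM per kb, below GATA4 (13.5 CPM per kb) and above HEY1 (5.23 CPM per kb), with no overlap with either. With METH, GATA2 was at 60.6 CPM per kb, within the range of TLX2 (48.3 to 72.6 CPM per kb). TFAP2B was at 6.86 CPM per kb, and its libraries overlapped those of HEY1 (7.12 CPM per kb) and PBX3 (6.01 CPM per kb). MYCN was the lowest of the 9 in both groups, at 0.470 CPM per kb with PBS.

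**Figure D3:**
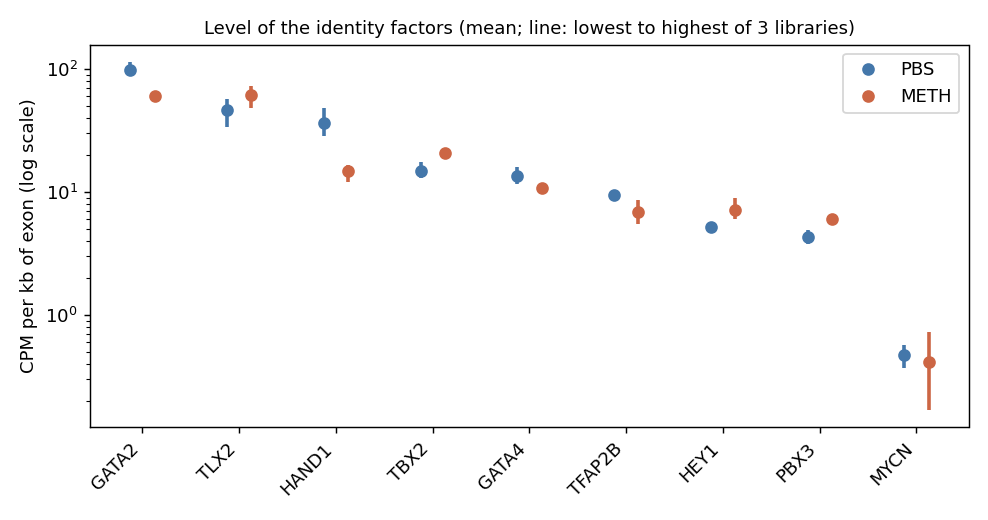
Level of 9 identity and family factors in CPM per kb of exon (vertical log axis), with the mean as a point and a line from the lowest to the highest of the 3 libraries, for PBS (blue) and METH (orange). GATA2 stands at 98.9 CPM per kb with PBS and 60.6 with METH, and TFAP2B at 9.54 and 6.86.

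Of 24 other factors known from sympathetic neurons and adrenergic neuroblastoma, 6 are in the table. With METH 1 of the 6 was lower and 2 higher, beside 35.8% and 33.3% of the table, and their median log2 change was 0.42 (0.11 over all genes of the table). Both directions therefore occur in the list, and the other 18 factors were not analysed here. HAND1, a basic helix-loop-helix factor related to HAND2, fell from 59.1, 49.2 and 83.3 CPM in the PBS libraries to 27.0, 20.8 and 28.8 CPM in the METH libraries. The decrease of HAND1 came to -1.30 on the log2 scale (standard error 0.246, limma adjusted p = 0.0108), and it was past the threshold in all 6 fits that left out a library. 

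TBX2, a T-box factor, rose from 83.3, 79.1 and 105 CPM with PBS to 130.3, 130.2 and 116 CPM with METH (log2 change 0.50, limma adjusted p = 0.0677). PBX3, a homeobox cofactor, was at 22.1, 17.0 and 19.4 CPM with PBS and 26.0, 27.9 and 27.9 CPM with METH (log2 change 0.49, limma adjusted p = 0.0680). HEY1 (0.43, adjusted p = 0.109), TLX2 (0.41, adjusted p = 0.173) and MYCN (-0.33, adjusted p = 0.495) were not past the threshold, and MYCN turned to 0.13 without METH 2. TBX2 missed the threshold without PBS 10, PBS 11, METH 1 or METH 2 (adjusted p = 0.101 to 0.192), and PBX3 without any library but PBS 10 (adjusted p = 0.111 to 0.189). A gene antisense to TBX2, AC005746.2, also has a row in the table, with a log2 change of 0.96. The count of higher factors was 0 without PBS 11, METH 1 or METH 2, and 1 without PBS 10, PBS 12 or METH 3.

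Of 10 relatives of GATA2 and TFAP2B by family, 1 is in the table. GATA4, a GATA factor better known from heart and gonad, was at 52.0, 57.0 and 71.0 CPM with PBS and 48.7, 51.2 and 43.4 CPM with METH. All METH libraries were below all PBS libraries, with a log2 change of -0.32 that was not past the limma threshold (adjusted p = 0.165, unadjusted p = 0.145). edgeR on recovered reads placed it past the threshold (adjusted p = 0.0941), and DESeq2 did not (adjusted p = 0.127).

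Of 20 cofactors, 3 are in the table, and 1 was higher and 0 lower, beside 33.3% and 35.8% of the table, with a median log2 change of -0.36. CITED2, a coactivator that joins AP-2 proteins to CBP and p300, rose from 0.153, 1.07 and 0.408 CPM in the PBS libraries to 34.1, 32.8 and 11.9 CPM in the METH libraries. METH 3 was the lowest METH library for CITED2 and the highest for TFAP2B. It was also the lowest METH library for NPY, ID1 and VIM, and the highest for CHGB and GCH1. Genes of the table held 19.3% of the reads of METH 3 and 24.3% of those of METH 1 and of METH 2. A link between CITED2 and TFAP2B was not tested. CITED2 rose by 5.48 on the log2 scale (standard error 0.581, limma adjusted p = 0.00172) and was past the threshold in every fit that left out a library. The size depends on the low PBS values, and with a pseudocount of 1 it was 4.05. LMO1, a LIM-only adaptor and neuroblastoma oncogene, was at 39.8, 108 and 62.1 CPM with PBS and 41.5, 47.6 and 34.1 CPM with METH (log2 change -0.66, adjusted p = 0.110). KCTD15, an inhibitor of AP-2 activity, was at 39.5, 61.8 and 52.9 CPM with PBS and 42.7, 38.3 and 37.2 CPM with METH (log2 change -0.36, adjusted p = 0.152). LMO1 and KCTD15 overlapped between groups and had an unadjusted limma p above 0.05. Both were past the threshold without PBS 10 (-1.01 and -0.54) and with edgeR, which made 2 lower cofactors, and LMO1 alone with DESeq2 and with scaling to the same median ratio. Without PBS 11, the highest library for both, the changes were -0.29 (adjusted p = 0.320) and -0.22 (adjusted p = 0.363).

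**Figure D4:**
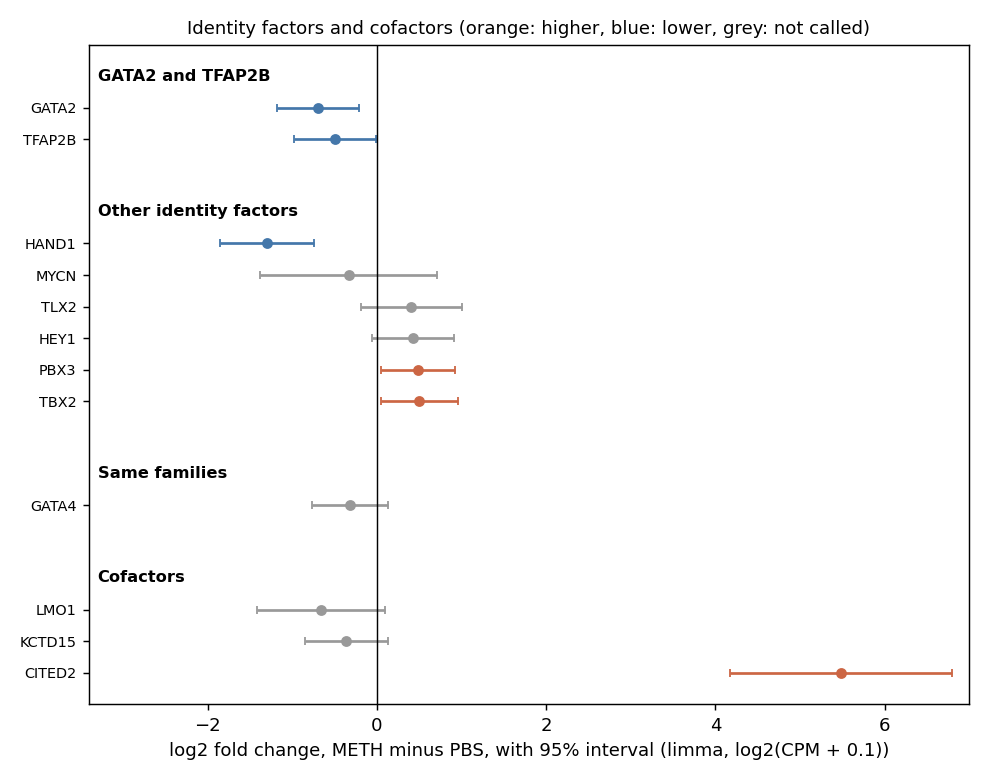
Log2 fold change of METH against PBS with its 95% interval (horizontal axis, limma on log2(CPM + 0.1)) for GATA2 and TFAP2B, 6 other identity factors, GATA4 and 3 cofactors; blue is lower and orange higher at an adjusted p-value under 0.1, grey is not past it. GATA2 (-0.70) and TFAP2B (-0.50) lie between HAND1 (-1.30) and GATA4 (-0.32), and CITED2 (5.48) lies far to the right.

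Genes of the noradrenergic programme were followed as a list of 23, and regulation of these genes by GATA2 or TFAP2B was not tested. Of the 23, 12 are in the table. With METH 5 were lower, 6 were higher and 1 was not past the threshold, beside 35.8% and 33.3% of the table, and the median log2 change was 0.09. SLC6A2, the noradrenaline transporter, fell from 97.3, 88.3 and 97.0 CPM to 69.3, 66.0 and 59.0 CPM (log2 change -0.54, limma adjusted p = 0.0471). CYB561, which passes electrons into the vesicles to regenerate ascorbate for dopamine beta-hydroxylase, fell from 515, 572 and 718 CPM to 341, 333 and 357 CPM (-0.79, adjusted p = 0.0334). In CYB561, as in GATA2, PBS 12 was the highest library and the METH libraries lay close together. DDC (-0.53, adjusted p = 0.0873), the decarboxylase that makes dopamine, PNMT (-1.05, adjusted p = 0.0313), which turns noradrenaline into adrenaline, and ELAVL4 (-0.69, adjusted p = 0.0512), a neuronal RNA-binding protein, were also lower. FIGNL1 overlaps DDC on the same strand, as AC136621.1 does SLC6A2. Both have rows of their own and were lower with METH (log2 change -1.62 for FIGNL1 and -2.76 for AC136621.1). Part of the reads of DDC and SLC6A2 is therefore uncertain, and the share of the overlaps in their decreases was not tested. SLC6A2 was not past the threshold without METH 1 (adjusted p = 0.112), METH 2 (adjusted p = 0.146) or METH 3 (adjusted p = 0.104), and CYB561 was not without METH 1 (adjusted p = 0.105) or METH 2 (adjusted p = 0.122). DDC was not past it without any library but PBS 10 (adjusted p = 0.134 to 0.192, with a log2 change of -0.32 without PBS 11), nor without a trend (adjusted p = 0.108). PNMT missed it without METH 2 (adjusted p = 0.102), and ELAVL4 without METH 1 (adjusted p = 0.151) or METH 2 (adjusted p = 0.147).

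GCH1, which makes the cofactor of tyrosine hydroxylase, moved the other way, from 31.9, 29.7 and 27.0 CPM to 56.8, 62.2 and 68.0 CPM (log2 change 1.07, limma adjusted p = 0.00899). The vesicular monoamine transporter SLC18A2 rose from 0.417 ± 0.129 to 1.38 ± 0.240 CPM (SD, n = 3 each; 1.54, adjusted p = 0.0161). The granins CHGB (0.92, adjusted p = 0.0205), SCG2 (0.83, adjusted p = 0.0338) and SCG3 (0.70, adjusted p = 0.0280), proteins of dense-core vesicles, and the peptide NPY (0.74, adjusted p = 0.0702) rose as well. VIP, a neuropeptide, was not past the threshold with limma (-0.59, adjusted p = 0.106). It was with edgeR (-0.70, adjusted p = 0.0867), DESeq2 (-0.67, adjusted p = 0.0691) and libraries scaled to the same median ratio (-0.62, adjusted p = 0.0993), each of which gave 6 lower genes. Without METH 1 there were 1 lower and 4 higher genes of the programme, and without METH 2 there were 0 and 3. SCG2 missed the threshold without METH 1 or METH 2 (adjusted p = 0.106 and 0.103), SCG3 without METH 2 (adjusted p = 0.102), and NPY without PBS 10, PBS 12, METH 1 or METH 2 (adjusted p = 0.126 to 0.200). SLC18A2, GCH1 and CHGB were past it in all 6 fits that left out a library, and the change of SLC18A2, which is near 1 CPM, was 0.75 with a pseudocount of 1.

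Of 11 receptors of sympathetic neurons and their precursors, 4 are in the table, and 2 were lower and 2 higher, with a median log2 change of 0.25, beside 35.8% lower, 33.3% higher and a median of 0.11 over the table. RET, the receptor tyrosine kinase for GDNF family ligands, fell from 102, 101 and 114 CPM to 39.7, 40.6 and 35.8 CPM (log2 change -1.45, standard error 0.182, limma adjusted p = 0.00337). LIFR, the receptor of leukaemia inhibitory factor, fell from 1.32 ± 0.152 to 0.560 ± 0.150 CPM (SD, n = 3 each; -1.12, adjusted p = 0.0293). Both decreases were past the threshold in all 6 fits that left out a library. NGFR, the low-affinity neurotrophin receptor (1.74, adjusted p = 0.0451), and GFRA1, a coreceptor of RET (1.62, adjusted p = 0.0419), were higher. Without PBS 12 neither was past the threshold (adjusted p = 0.111 and 0.109). NGFR also missed it without METH 1 (adjusted p = 0.122), and GFRA1 without METH 2 (adjusted p = 0.127). The change of NGFR was 1.05 without PBS 10 and 2.41 without PBS 11, and that of GFRA1 was 1.01 without METH 2. With a pseudocount of 1 the changes of GFRA1 and LIFR, both near or below 1 CPM, were 0.57 and -0.57, and with DESeq2 that of GFRA1 was 2.48.

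**Figure D5:**
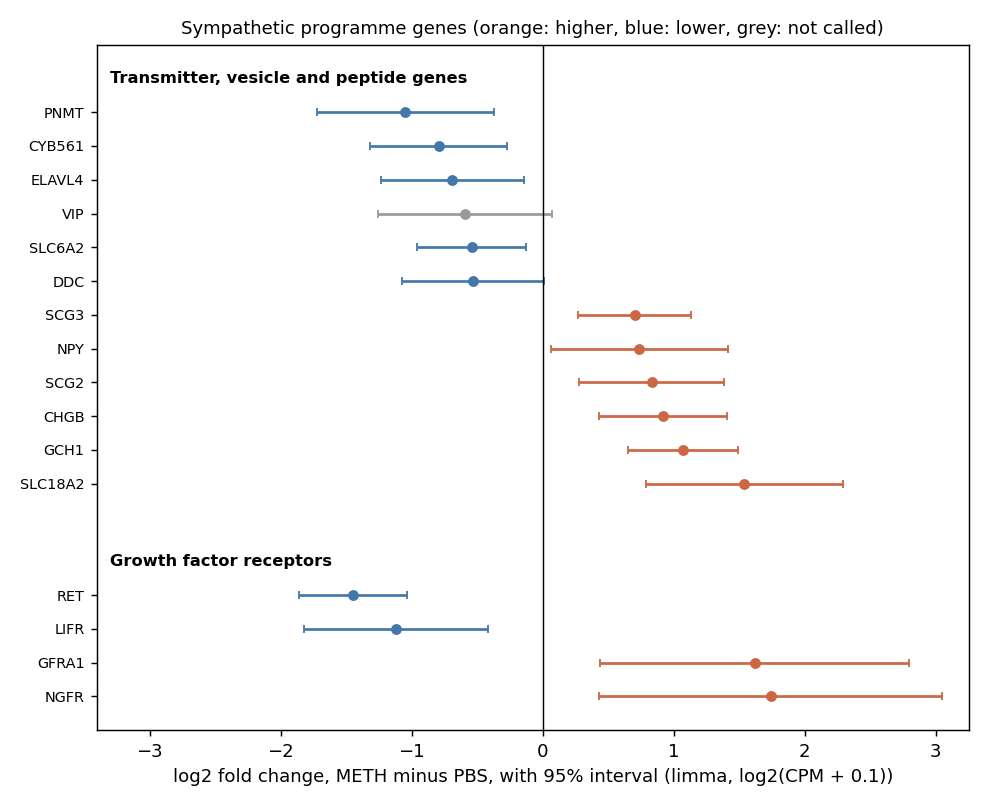
Log2 fold change of METH against PBS with its 95% interval (horizontal axis, limma on log2(CPM + 0.1)) for 12 transmitter, vesicle and peptide genes and 4 receptors; blue is lower, orange higher and grey not past an adjusted p-value of 0.1. PNMT (-1.05), CYB561 (-0.79) and RET (-1.45) lie on the lower side, and GCH1 (1.07) and the granins on the higher side.

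Markers of the mesenchymal state of neuroblastoma cells were measured beside these genes. Of 31, 13 are in the table, with 10 higher and 1 (SMAD3) lower with METH, and a median log2 change of 0.94, beside 33.3% higher, 35.8% lower and a median of 0.11 over the table. Their summed level was 666 to 1100 CPM in the PBS libraries and 1270 to 1800 CPM in the METH libraries, most of it from vimentin (VIM), ID1 and TWIST1. VIM (log2 change 0.89) and ID1 (1.12) were past the threshold, and TWIST1 was not (0.40, limma adjusted p = 0.182). A gene antisense to TWIST1, AC003986.2, has a row of its own, with a log2 change of -1.40. FOSL2, an AP-1 subunit, rose most, from 4.28 ± 2.00 to 33.3 ± 18.2 CPM (SD, n = 3 each; log2 change 2.87, adjusted p = 0.00766), and SNAI2 (0.97), SOX9 (0.99) and SIX4 (1.34) were also higher. These 3 were low with PBS, at means of 2.06, 1.36 and 1.17 CPM, and with a pseudocount of 1 their changes were 0.74, 0.67 and 0.91. SNAI2 missed the threshold without METH 1 (limma adjusted p = 0.104), and SOX9 without PBS 12 or METH 1 (limma adjusted p = 0.110 and 0.133). PRRX1, a defining factor of that state, has no row in the table and could not be analysed here. The count of higher markers was 5 without METH 1 or without METH 2, and SMAD3 missed the threshold without any library but PBS 11 (adjusted p = 0.151 to 0.210). Of 9 Schwann cell markers, 1 (ERBB3) is in the table, at 0.268 to 0.460 CPM with PBS and 0.537 to 0.785 CPM with METH. It was past the limma threshold (log2 change 0.78, adjusted p = 0.0786) but not with edgeR or DESeq2, nor without any library but PBS 10 (adjusted p = 0.121 to 0.174). The part of either cell state in the decreases of GATA2 and TFAP2B was not tested.

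The genes whose levels followed the members most closely were taken by Pearson's r on log2(CPM + 0.1) over the 6 libraries, among the 3762 genes that reached 1 CPM on average in either group. The libraries fall into the treatment groups, so each r includes the difference between groups, and the values are descriptions. For GATA2 they were AC138904.1 (r = 0.9989), C7orf49 (r = 0.9941) and TMEM177 (r = 0.9930), all lower with METH and highest in PBS 12. For TFAP2B they were STRIP2 (r = 0.9963), RAB40B (r = 0.9943) and BCOR (r = 0.9902). BCOR, a corepressor of BCL6, was at 31.8, 22.4 and 29.5 CPM with PBS and 12.4, 16.8 and 23.0 CPM with METH, with METH 3 above PBS 11. An r above 0.95 was found for 150 genes with GATA2 and for 28 with TFAP2B. Between GATA2 and TFAP2B r was 0.7571, and their order of libraries differed within both groups.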

How the data were processed

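Gene expression was measured by RNA sequencing (Illumina HiSeq) in 6 libraries of SH-SY5Y cells, 3 per group. The authors deposited a table of CPM per library (headed FPKM), group means in CPM, and the columns of their own DESeq2 comparison (a fold change as a ratio, its log2 value and p-values), which were not used. No correction for gene length is in these CPM. Whole multiples of 1 step (tolerance 0.00051 CPM) made up at least 99.9756% of a column, so the reads and the denominators (85.67 to 110.8 M) were recovered. The aligner, counting tool, build and DESeq2 version are not given in the sources used here. All 4101 rows are marked significant by the authors. The groups come from the labels. The PBS columns carry the numbers 10 to 12, which no sample label has.

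METH and PBS were compared by limma 3.58.1 (R 4.3.3; log2(CPM + 0.1), with a mean-variance trend), and p-values were adjusted after Benjamini-Hochberg across all 4101 genes. Tried instead were pseudocounts of 1 and 0.01, a filter at 1 CPM, no trend, scaling to the same median ratio, adjustment over 20000 genes, a threshold of 0.05, edgeR 4.0.16 and DESeq2 1.42.0 on the recovered reads, and each library left out. The scaling factors of edgeR, DESeq2 and the median ratio came only from genes of the table, all marked as differing. These genes hold 19.3% to 24.3% of the reads of a library. The fits were tested on simulated data where few genes changed, each by more than GATA2 or TFAP2B did here. That test does not cover a table in which every gene was selected as differing. GATA2, TFAP2B, the 7 gene lists and all their genes in the table were named, with the 3 genes most like each member and the overlapping genes. Members and lists were chosen from general knowledge with earlier results of these data known. A few listed genes, among the identity factors, receptors and mesenchymal markers, are not reported here, and the counts and medians of those lists leave them out. Of the 42 listed genes in the table, 19 have an annotated gene on the opposite strand. GENCODE 29 holds 4093 of the identifiers. Exact permutation tests were 2-sided. Python 3.11.15, scipy 1.17.1 and matplotlib 3.10.9 were used.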

Additional observations from a re-analysis of the deposited data

How the results depend on the processing

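GATA2 and TFAP2B were lower with METH under all 14 alternatives, with log2 changes from -0.77 to -0.60 and from -0.67 to -0.35. The filter at 1 CPM, the fit without a trend and the adjustment over 20000 genes can change only the p-values, not these log2 changes. With a library left out, they ranged from -0.76 to -0.60 for GATA2 and from -0.67 to -0.35 for TFAP2B. GATA2 was past the threshold in 11 of the 14 and TFAP2B in 8. GATA2 (-0.70, adjusted p = 0.181) and TFAP2B (-0.50, adjusted p = 0.396) missed it when adjusted over 20000 genes, and TFAP2B without a trend (-0.50, adjusted p = 0.108). The table had 1366 higher and 1467 lower genes, 219 and 191 when adjusted over 20000 genes, 696 and 783 at a threshold of 0.05, and 412 to 1551 and 563 to 1368 with a library left out. Adjusted over 20000 genes, higher and lower counts were 0 and 1 for identity factors, 3 and 0 for the noradrenergic programme, 0 and 1 for receptors, and 1 and 0 for mesenchymal markers, and the Schwann marker count was 0. At a threshold of 0.05, there were 0 higher identity factors, 3 lower programme genes, 0 lower mesenchymal markers and 0 Schwann markers. With edgeR there were 1 higher identity factor, 1 lower family gene, 2 lower cofactors and 0 Schwann markers. With DESeq2 there were 1 lower cofactor and 0 Schwann markers. Scaling to the same median ratio gave 1 lower cofactor, and the filter at 1 CPM gave 1 higher receptor and 0 Schwann markers. With a library left out, the higher and lower counts were 0 to 1 (as reported, 2) and 1 for identity factors, 3 to 6 and 0 to 5 for the programme, 0 to 2 and 2 for receptors, 5 to 9 and 0 to 2 for mesenchymal markers, 0 to 2 for lower cofactors and 0 to 1 for the Schwann marker. MYCN, not past the threshold, was at -0.33 as reported, turned to 0.13 without METH 2 and ranged from -0.80 to 0.13 with a library left out. The causes were not tested. Fewer libraries were fitted in each left-out case. No paired analysis was possible because the numbers of the PBS columns match no METH column.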
